A study of Mus musculus with 12 samples.

Results

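The genes of the constitutive proteasome and of its Psme activators were followed in mouse macrophages that were resting or stimulated, with or without an inhibitor of triglyceride synthesis. Members were the protein-coding genes whose symbol is Psma, Psmb, Psmc, Psmd or Psme followed by a number, with at least 100 reads over the 12 libraries, without the interferon-inducible subunits Psmb8, Psmb9 and Psmb10. The rule gave 38 genes of the 47937 in the count table, of which 14 encode the core, 20 the cap and its assembly chaperones, and 4 the activators. Psma8, a testis form of a core subunit, had 90 reads and fell below the minimum, Psmb11 had 0 reads, and 4 pseudogenes were left out. Psme2b and Psmc3ip, in whose symbols letters follow the number, were not members.

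The macrophages were grown for 7 days from bone marrow of C57BL/6 mice in CSF-1, so that all groups share this growth factor. RNA was sequenced in 4 groups of 3 libraries each, namely resting macrophages (M0), macrophages given IFNγ (50 ng/ml) and LPS (20 ng/ml) for 18 h (IFNγ + LPS), and each of these with 50 μM of the DGAT1 inhibitor T863 (DGAT1i). DGAT1 catalyses the last step of triglyceride synthesis. For replicates 2 and 3 of resting cells with DGAT1i, one label field carries a compound name other than T863 and another field T863, and both were taken as T863. The mice were 6 to 8 weeks old when used. The deposited labels do not say whether replicates came from separate animals or cultures, so that p-values measure the spread between these libraries, which may be technical.

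The proteasome degrades proteins tagged with ubiquitin. Its 20S core is a barrel of alpha rings, encoded by Psma genes, around beta rings, encoded by Psmb genes, and 3 of the beta subunits (Psmb5, Psmb6 and Psmb7) cut the protein. The 19S cap recognizes and unfolds substrates with a base of 6 ATPases (Psmc1 to Psmc6) and further base and lid subunits (Psmd genes). Psme1 and Psme2 together form PA28αβ, an alternative cap that opens the core for short peptides, Psme3 encodes the nuclear activator PA28γ and Psme4 the activator PA200. Interferon-γ is known in many cells to replace the cutting subunits by Psmb8, Psmb9 and Psmb10, which form the immunoproteasome, and to induce PA28αβ, which serves the production of peptides for MHC class I.

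The libraries held 4996014 to 6621671 reads on genes, with between 96 and 3510 reads of a member in a library. Counts were scaled by TMM, a method that sets the bulk of genes equal between libraries, and are given as CPM, counts relative to the scaled library size. All 7 genes of a macrophage marker list were detected in every library, with Adgre1, Csf1r, Cd68 and Lyz2 at 593 CPM or more and Itgam, Mertk and Cd14 between 65.4 and 524.0 CPM. The list summed to 13035 to 14273 CPM in M0 and to 7451 to 8189 CPM in IFNγ + LPS. With DGAT1i it summed to 15944 to 17984 CPM in M0, above all M0 libraries, and to 7179 to 8218 CPM in IFNγ + LPS. The higher sum rested largely on Lyz2, at a mean of 9641 CPM in M0 and 13045 CPM in M0 with DGAT1i. Cd68 and Mertk were also higher there and Itgam overlapped. Adgre1 (means of 1316 and 1164 CPM), Csf1r and Cd14 (168 and 98.2 CPM) were lower with DGAT1i in M0. On stimulation the genes of this list moved both ways, and most fell. Mertk and Adgre1 rose by 2.69 and 1.04 on the log2 scale, Lyz2 fell by 1.71, and Csf1r, Cd68, Itgam and Cd14 fell as well. Nos2 and Cxcl9, which mark the response to IFNγ + LPS, were at 0 in all M0 libraries and at 1784 CPM or more after stimulation. Markers of T cells, B cells, fibroblasts and erythroid cells summed to at most 4.83 CPM per library and list, with Cd3e, Cd3g, Col3a1, Hba-a1, Hbb-bs and Hbb-bt at 0. A list of 8 neutrophil and granule genes summed to 31.6 to 38.7 CPM in M0, 22.9 to 29.0 CPM in M0 with DGAT1i, 15.2 to 25.5 CPM in IFNγ + LPS and to 63.0 to 81.0 CPM in IFNγ + LPS with DGAT1i, with Ly6g at 0 throughout. The sum of this list was thus lower after stimulation without DGAT1i and lower with DGAT1i in M0. It was higher with DGAT1i in stimulated cells and after stimulation under DGAT1i, in each case without overlap. Its genes did not move together, since on stimulation without DGAT1i the means of Ngp (8.66 to 1.35 CPM) and Ltf (7.41 to 0.93 CPM) fell. That of S100a8 did not (7.23 to 9.13 CPM). A list of 4 dendritic cell genes rested on Clec9a, at 6.37 to 9.69 CPM in IFNγ + LPS, 2.09 to 2.88 CPM in IFNγ + LPS with DGAT1i and at most 0.145 CPM in M0. The part of these differences in the results was not tested, and in bulk RNA fewer cells of a type and less RNA per cell cannot be told apart.

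The promoters of 6 members are shown, those of the 4 activators, which include the genes that rose most on stimulation and Psme3, which changed little, that of Psma5, first among core genes, and that of the cutting subunit Psmb5. Each window holds the 250 bases before and the first 30 bases after the start that RefSeq gives on GRCm38.p6, written 5′ to 3′ on the gene's strand. They lie at chr14:55578244-55578523 (plus strand, Psme1), chr14:55591072-55591351 (minus strand, Psme2, the outer of 2 starts), chr11:101315963-101316242 (plus strand, Psme3), chr11:30771525-30771804 (plus strand, Psme4), chr3:108256676-108256955 (plus strand, Psma5) and chr14:54617966-54618245 (minus strand, Psmb5). GENCODE release M21 sets the outermost start of Psme1, Psme2, Psme4 and Psmb5 further upstream and gives the same start for Psme3 and Psma5. Capitals mark matches, on either strand, to any of 6 motifs, and no marked matches overlap.
Psme1: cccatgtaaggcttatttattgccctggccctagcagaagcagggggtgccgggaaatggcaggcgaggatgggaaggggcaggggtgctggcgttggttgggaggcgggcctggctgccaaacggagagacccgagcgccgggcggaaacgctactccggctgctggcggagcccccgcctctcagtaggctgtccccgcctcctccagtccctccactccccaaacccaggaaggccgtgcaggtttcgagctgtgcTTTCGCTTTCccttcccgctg
Psme2: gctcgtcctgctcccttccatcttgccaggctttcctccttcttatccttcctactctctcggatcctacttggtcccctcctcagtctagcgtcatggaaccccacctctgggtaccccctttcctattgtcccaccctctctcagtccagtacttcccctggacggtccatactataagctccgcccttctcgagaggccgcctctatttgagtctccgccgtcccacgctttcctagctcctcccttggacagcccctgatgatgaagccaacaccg
Psme3: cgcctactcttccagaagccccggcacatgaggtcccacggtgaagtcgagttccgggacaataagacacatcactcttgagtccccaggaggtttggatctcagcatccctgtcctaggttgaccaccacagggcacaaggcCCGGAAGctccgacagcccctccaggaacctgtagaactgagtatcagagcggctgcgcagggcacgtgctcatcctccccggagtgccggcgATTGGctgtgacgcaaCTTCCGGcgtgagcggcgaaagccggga
Psme4: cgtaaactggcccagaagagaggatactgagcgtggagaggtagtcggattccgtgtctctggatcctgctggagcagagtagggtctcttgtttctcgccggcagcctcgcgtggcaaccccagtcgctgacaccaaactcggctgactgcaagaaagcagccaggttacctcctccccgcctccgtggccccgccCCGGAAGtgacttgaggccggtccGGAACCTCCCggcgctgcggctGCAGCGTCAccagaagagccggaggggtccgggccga
Psma5: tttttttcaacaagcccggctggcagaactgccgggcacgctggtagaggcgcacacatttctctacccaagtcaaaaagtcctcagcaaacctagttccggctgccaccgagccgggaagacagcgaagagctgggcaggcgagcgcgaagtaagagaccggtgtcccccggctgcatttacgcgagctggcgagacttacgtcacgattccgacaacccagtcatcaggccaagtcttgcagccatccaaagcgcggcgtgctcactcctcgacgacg
Psmb5: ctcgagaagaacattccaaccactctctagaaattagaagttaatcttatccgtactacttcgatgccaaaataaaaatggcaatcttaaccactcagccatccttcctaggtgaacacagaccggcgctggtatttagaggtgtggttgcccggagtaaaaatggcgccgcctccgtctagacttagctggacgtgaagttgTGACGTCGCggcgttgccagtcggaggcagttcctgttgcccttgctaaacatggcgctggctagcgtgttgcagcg

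The motifs were the gamma-activated site GAS (TTCNNNGAA), an interferon-stimulated response element written as GAAANNGAAA, an NF-κB-like site (GGGNNNTTCC), the antioxidant response element (TGACNNNGC) bound by Nfe2l1 and Nfe2l2, the CCAAT box (CCAAT) and an Ets-like site (CCGGAAG). Promoter windows of 300 bases were found for 32 of the 38 members in the RefSeq table and compared with all 32851 windows in it. The Ets-like site stood in 12 of the 32 members (37.5%) and in 8.86% of all windows, and these members were 1 of 11 core genes, 9 of 17 cap genes, and Psme3 and Psme4. CCAAT boxes stood in 12 members (37.5%) and in 37.4% of all windows, with 6 of the 12 in core genes. The antioxidant response element was matched in 6 members (18.8%), among them Psmb5, Psmb6 and Psme4, and in 12.4% of all windows. Psmb3, Psmd4, Psmd9 and Psme1 (12.5%) held the interferon-stimulated response element, as did 3.44% of all windows, and in Psme1 the match began at base 10 after the start. GAS was found in Psmd2 alone, against 8.30% of all windows, and the NF-κB-like site in Psmd2, Psmd12 and Psme4, against 5.56%. Psme2 and Psma5, the activator and the core gene whose RNA rose most, had no match to any of the 6 motifs in the windows searched. A match is a string of letters and not a measured binding site.

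The response of the proteasome genes to stimulation was measured by comparing IFNγ + LPS with M0. Of the 38 members, 36 rose and 0 fell, that is, all 14 core genes, 18 of 20 cap genes and all 4 Psme genes, with p-values from the quasi-likelihood test of edgeR, adjusted by Benjamini-Hochberg over 11760 genes (edgeR adjusted p, threshold 0.05). Among all genes tested, 37.1% rose and 36.2% fell. The median log2 fold change was 1.03 over core genes, 0.60 over cap genes and 1.89 over Psme genes, beside 0.01 over all genes tested. The plot of responses to stimulation shows that Psme1 and Psme2 stood apart from every other member and that most core genes lay to the right of most cap genes. The direction of the smaller changes rests on the scaling. With library size alone in place of TMM, the median of all genes moved to -0.46, the medians of core, cap and Psme genes to 0.56, 0.13 and 1.42, 25 members rose, and Psmd1, Psmd6, Psmd9, Psmd13 and Psme3 fell, beside 19.9% of all genes that rose and 59.5% that fell on that scale. There, Psmb1 (-0.05), Psmc3 (-0.10) and Psmd12 (-0.03) also lay below 0 without a call.

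**Figure D1:**
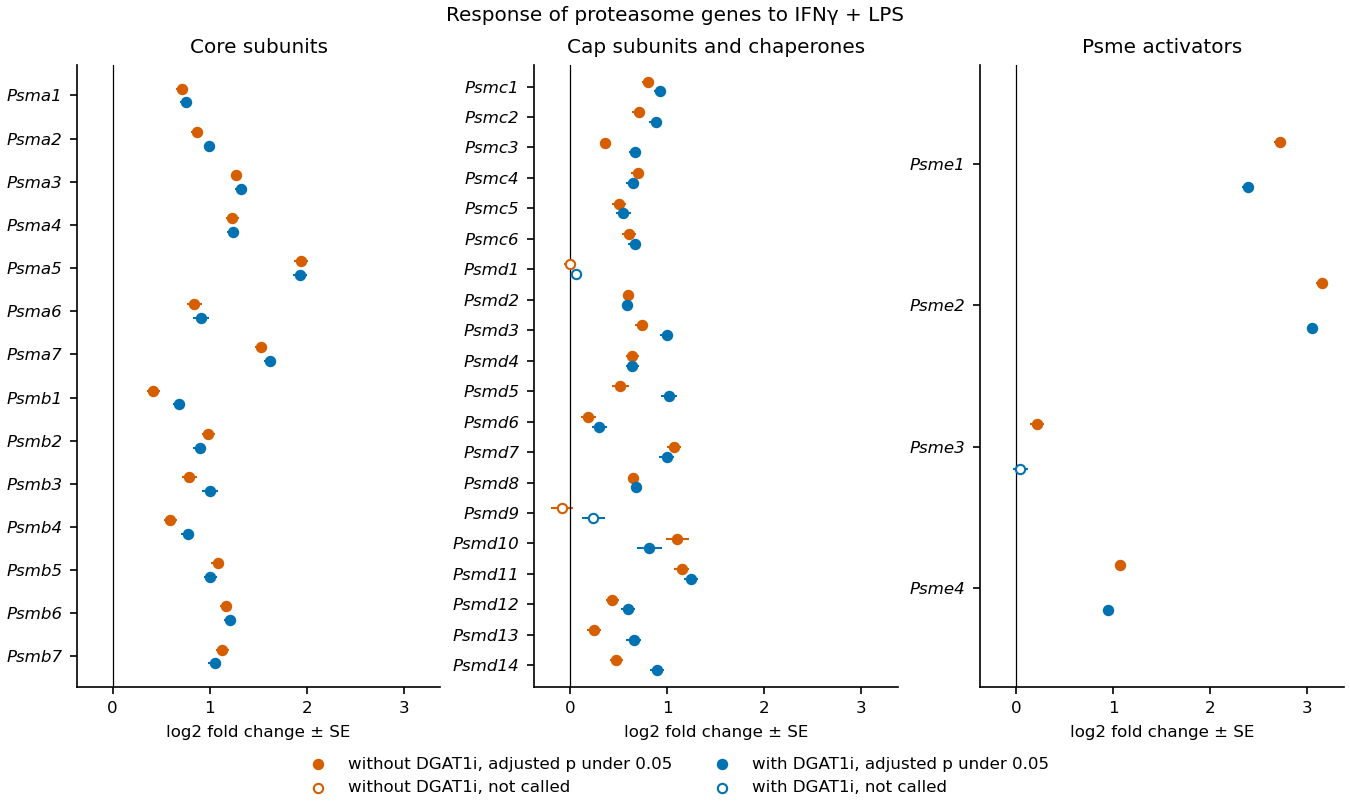
Log2 fold changes (x axis, ± SE) of the 38 members in IFNγ + LPS against M0, without DGAT1i in orange and with DGAT1i in blue, for core, cap and Psme genes, with filled points for an edgeR adjusted p under 0.05. Psme2 and Psme1 lie farthest right, at 3.15 and 2.72 without DGAT1i, and Psmd1 and Psmd9 lie near 0.

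The genes of PA28αβ are neighbours on chromosome 14 (GRCm38), Psme1 at chr14:55578123-55581529 on the plus strand and Psme2 at chr14:55587441-55591113 on the minus strand. Psme2 measured 71.3, 73.9 and 71.7 CPM in M0 and 647.9, 631.9 and 642.7 CPM in IFNγ + LPS. Psme1 measured 73.2, 74.4 and 66.0 CPM in M0 and 455.4, 495.1 and 453.3 CPM in IFNγ + LPS. Both genes thus had no overlap between the groups and were higher in 3 of 3 stimulated libraries. The increase was 8.86-fold for Psme2 (log2 fold change 3.15 ± 0.06 SE, edgeR adjusted p = 8.09e-47) and 6.57-fold for Psme1 (2.72 ± 0.06, edgeR adjusted p = 1.13e-42), and the 95% intervals of these log2 fold changes (3.03 to 3.26 and 2.60 to 2.84) did not overlap. Per kilobase of exon, Psme1 stood to Psme2 as 0.786 ± 0.045 (SD, n = 3) in M0 and as 0.583 ± 0.037 in IFNγ + LPS, and with the length of the longest transcript as 0.477 and 0.354. Psme2b, a near copy that shares 82.5% of the longest Psme2 transcript at 95% identity or more, rose from 6.79 ± 1.38 CPM to 44.4 ± 3.7 CPM (log2 fold change 2.71, edgeR adjusted p under the same threshold), and reads of these genes may have been assigned to either. Psme1 shares 14 bases of exon with Emc9 on the opposite strand.

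Psme3 and Psme4, the other activators, changed less. Psme3 (chr11:101316213-101323537), whose product PA28γ works in the nucleus, measured 60.6, 63.1 and 56.4 CPM in M0 and 66.8, 69.7 and 72.7 CPM in IFNγ + LPS. The stimulated libraries all lay above the resting ones, though by 1.16-fold only (log2 fold change 0.22 ± 0.07, edgeR adjusted p = 0.00641). This call was lost in DESeq2 (adjusted p = 0.0636), and with library size as the only scaling Psme3 fell by 0.25 on the log2 scale. Psme4 (chr11:30771726-30880361), which encodes PA200, measured 119.4, 120.3 and 120.9 CPM in M0 and 246.3, 253.5 and 257.6 CPM in IFNγ + LPS. Its libraries differed little within a group, and the increase was 2.10-fold (log2 fold change 1.07 ± 0.05, edgeR adjusted p = 2.07e-25).

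**Figure D2:**
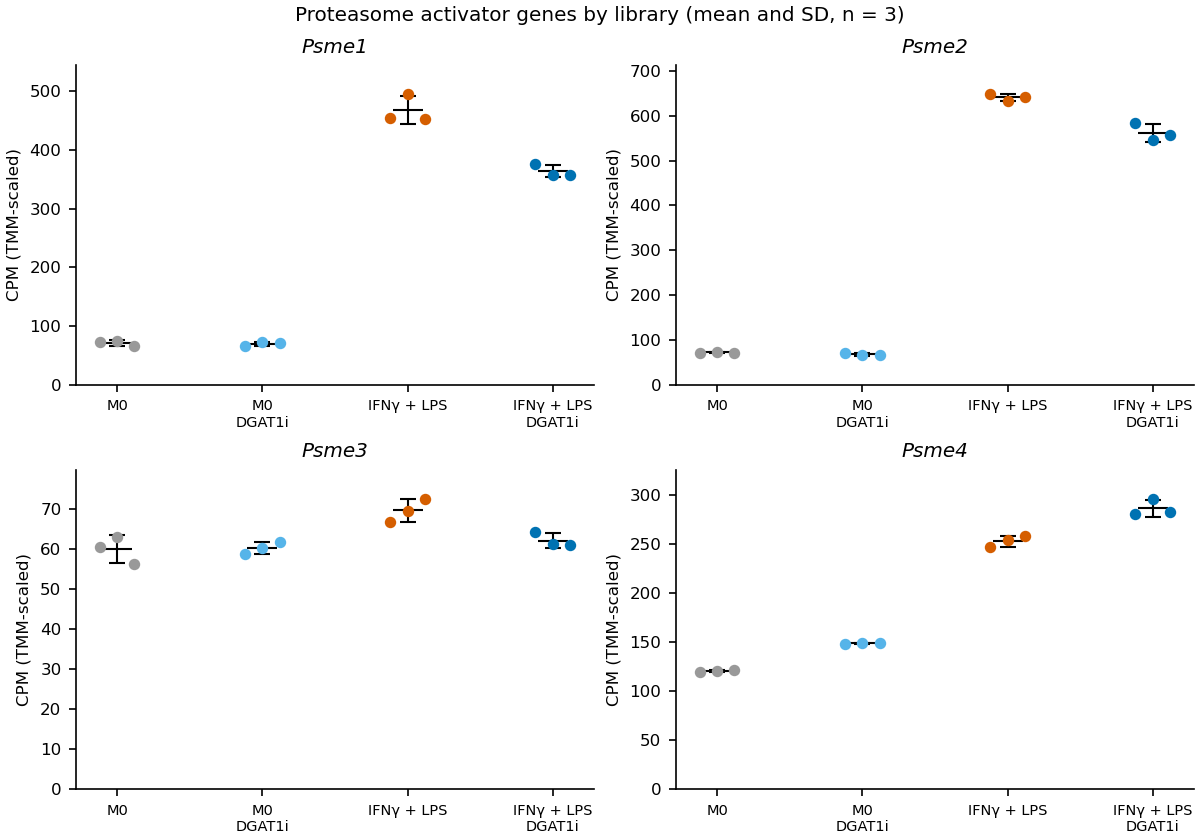
CPM (y axis, TMM-scaled) of Psme1, Psme2, Psme3 and Psme4 in each library of the 4 groups, with the mean and SD of 3 libraries as bars. Psme1 and Psme2 are high in both stimulated groups and lower there with DGAT1i, Psme4 is higher with DGAT1i in both states, and Psme3 stays between 56.4 and 72.7 CPM in all libraries.

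Among core genes, the alpha ring showed a median log2 fold change of 1.23 over 7 genes and the beta ring 0.99 over 7 genes. The alpha subunits form the outer rings through which substrates enter. Psma5 (chr3:108256926-108279974) measured 43.0, 48.7 and 52.4 CPM in M0 and 191.2, 172.6 and 190.5 CPM in IFNγ + LPS, with every stimulated library at more than 3 times any resting one. Its increase of 3.84-fold was the third among members (log2 fold change 1.94 ± 0.07, edgeR adjusted p = 3.59e-28). Psma7 measured 73.2, 70.0 and 67.9 CPM in M0 and 213.9, 193.7 and 202.7 CPM in IFNγ + LPS, an increase of 2.89-fold (1.53 ± 0.06, edgeR adjusted p = 2.31e-29). Psma3 measured 76.0, 78.4 and 72.3 CPM in M0 and 182.6, 177.5 and 188.8 CPM in IFNγ + LPS, an increase of 2.42-fold (1.28 ± 0.06, edgeR adjusted p = 1.17e-26). These 3 genes had no overlap between the groups. Psma4 followed at a log2 fold change of 1.23, which lies within the interval of Psma3 (1.15 to 1.40), and Psma1, Psma2 and Psma6 lay between 0.72 and 0.87. Psma5 has processed pseudogenes that share up to 76.5% of its longest transcript and held 36 and 38 reads against 7314 for Psma5.

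The 3 cutting subunits of the constitutive core rose by 2.12-fold to 2.25-fold. Psmb5, which cuts after hydrophobic residues, measured 52.6, 47.3 and 47.3 CPM in M0 and 106.1, 100.6 and 104.7 CPM in IFNγ + LPS (2.12-fold, log2 fold change 1.08 ± 0.07, edgeR adjusted p = 1.5e-20). Psmb6, with caspase-like activity, measured 100.5, 107.2 and 97.0 CPM in M0 and 223.0, 234.0 and 228.5 CPM in IFNγ + LPS (2.25-fold, 1.17 ± 0.06, edgeR adjusted p = 5.47e-25). Psmb7, with trypsin-like activity, measured 75.8, 75.4 and 68.5 CPM in M0 and 160.4, 157.5 and 163.0 CPM in IFNγ + LPS (2.19-fold, 1.13 ± 0.06, edgeR adjusted p = 2.93e-23). In all of them the groups did not overlap, and the 95% intervals of the log2 fold changes overlapped. Psmb7 shares 405 bases of exon with Nek6 on the opposite strand, and it is not stated whether reads were counted by strand. Of the structural beta subunits, Psmb2 and Psmb3 rose by 0.99 and 0.79 on the log2 scale, and Psmb4 and Psmb1 by 0.59 and 0.42. Psmb1 was the core gene with the smallest increase.

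The interferon-inducible counterparts, which the rule left out, rose more than the genes they replace, with 95% intervals of the log2 fold changes that did not overlap. Psmb8 rose 7.93-fold (log2 fold change 2.99 ± 0.06, edgeR adjusted p = 8.26e-45), Psmb9 11.7-fold (3.55 ± 0.07, edgeR adjusted p = 9.17e-46) and Psmb10 9.34-fold (3.22 ± 0.06, edgeR adjusted p = 1.15e-44). On levels per kilobase of exon, the ratio of Psmb8 to Psmb5 was 0.363 ± 0.046 (SD, n = 3) in M0 and 1.36 ± 0.04 in IFNγ + LPS. Psmb9 stood to Psmb6 as 0.127 ± 0.005 in M0 and as 0.660 ± 0.024 in IFNγ + LPS, and Psmb10 to Psmb7 as 1.12 ± 0.05 and 4.76 ± 0.16. The pairs therefore moved in one direction in every library, but the size of the ratios depends on the length used. With the length of the principal transcript, a choice made after the lengths had been seen, Psmb10 stood to Psmb7 as 0.492 in M0 and 2.10 in IFNγ + LPS, and Psmb8 to Psmb5 as 0.755 and 2.82. With the longest transcript, Psmb8 stood to Psmb5 as 0.644 and 2.41, and Psmb9 to Psmb6 as 0.0829 and 0.432. Psmb9 shares 212 bases of exon with Tap1 on the opposite strand, a gene with 31187 reads.

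**Figure D3:**
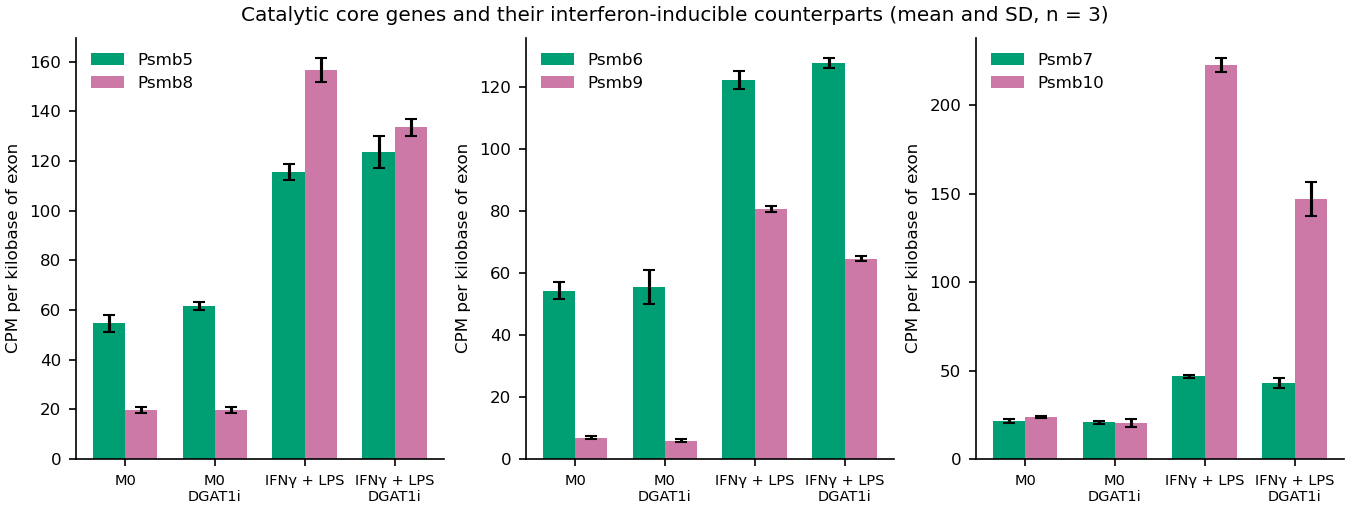
CPM per kilobase of exon (y axis) of each constitutive cutting subunit and its interferon-inducible counterpart in the 4 groups, as means with SD of 3 libraries. Constitutive and inducible genes both rise after IFNγ + LPS, and only the inducible ones of the pairs, Psmb8, Psmb9 and Psmb10, passed the test for a decrease with DGAT1i in IFNγ + LPS.

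The median increase was smaller over cap genes than over core genes, with log2 fold changes from -0.08 to 1.15 for cap and from 0.42 to 1.94 for core genes. The 6 base ATPases all rose, with log2 fold changes from 0.37 (Psmc3) to 0.81 (Psmc1) and a median of 0.65. Psmc3 measured 107.1, 114.1 and 106.8 CPM in M0 and 137.5, 143.1 and 142.4 CPM in IFNγ + LPS (1.29-fold, edgeR adjusted p = 2.79e-07), and it shares 215 bases of exon with Slc39a13 on the opposite strand. Of the other base subunits, Psmd2 and Psmd4, the latter a ubiquitin receptor, rose by 0.60 and 0.64 on the log2 scale. Psmd1, the large scaffold of the base, measured 154.0, 151.6 and 164.3 CPM in M0 and 162.5, 154.3 and 152.7 CPM in IFNγ + LPS. Its groups overlapped, its log2 fold change was 0.00 with a 95% interval of -0.12 to 0.12, and it did not pass the test (edgeR adjusted p = 0.978). Psmd1 and Psmd9 are described because they were the 2 members without a call here, a choice made after their values were seen. With library size as the only scaling, they fell by 0.47 and 0.55 on the log2 scale and passed the test. Psmd1 shares 252 bases of exon with Htr2b on the opposite strand, which had 693 reads against 12020 for Psmd1.

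The 8 lid genes all rose, with a median log2 fold change of 0.57. Psmd11 and Psmd7 led them at 1.15 and 1.08, whereas Psmd13 and Psmd6 were at 0.25 and 0.19. Psmd11 (chr11:80428615-80473248), a lid scaffold, measured 37.6, 37.8 and 38.6 CPM in M0 and 81.5, 87.5 and 84.3 CPM in IFNγ + LPS, with no overlap between the groups (2.22-fold, log2 fold change 1.15 ± 0.08, edgeR adjusted p = 2.76e-20). Psmd14, the lid enzyme that removes ubiquitin from substrates, measured 74.8, 67.9 and 69.5 CPM in M0 and 103.0, 93.6 and 99.3 CPM in IFNγ + LPS (1.39-fold, 0.48 ± 0.07, edgeR adjusted p = 9.93e-09). Psmd13 measured 76.1, 62.2 and 70.3 CPM in M0 and 74.5, 84.4 and 88.6 CPM in IFNγ + LPS, so that its groups overlapped in spite of the call (1.19-fold, 0.25 ± 0.07, edgeR adjusted p = 0.00195). The call of Psmd6 was lost when M0 replicate 1, M0 replicate 3, IFNγ + LPS replicate 1 or IFNγ + LPS replicate 3 was left out.

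Of the 3 chaperones that assemble the base, Psmd10 and Psmd5 rose and Psmd9 did not pass the test. Psmd10, also known as gankyrin, measured 13.9, 17.3 and 20.6 CPM in M0 and 33.5, 41.0 and 37.1 CPM in IFNγ + LPS (2.15-fold, log2 fold change 1.11 ± 0.12, edgeR adjusted p = 8.47e-12). Psmd5 measured 39.2, 39.8 and 38.6 CPM in M0 and 63.0, 47.3 and 59.2 CPM in IFNγ + LPS (1.43-fold, 0.52 ± 0.09, edgeR adjusted p = 1.53e-06), with replicate 2 of the stimulated group well below the other two. Psmd9 measured 25.1, 22.8 and 24.1 CPM in M0 and 23.4, 22.3 and 22.3 CPM in IFNγ + LPS, with overlapping groups and a log2 fold change of -0.08 (95% interval -0.31 to 0.15, edgeR adjusted p = 0.52). Psmd9 and Psmd10 were the least covered members, with 1679 and 1727 reads over the 12 libraries, beside a median of 7250 over members, and their errors were the largest of the members in this comparison.

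Core and cap genes were set against each other in each library, as the median over genes of the log2 CPM relative to each gene's mean in M0. In IFNγ + LPS the core median was 1.07, 1.02 and 1.02 and the cap median 0.60, 0.61 and 0.61. The core minus cap difference was thus 0.47, 0.41 and 0.41 in the 3 stimulated libraries and -0.04 to 0.02 in the M0 libraries, with no overlap. In IFNγ + LPS with DGAT1i it was 0.28, 0.17 and 0.33, below all IFNγ + LPS libraries without the inhibitor. In M0 with DGAT1i it was -0.08, -0.11 and -0.11, below all M0 libraries. As a difference between median log2 fold changes, core exceeded cap by 0.43 in IFNγ + LPS against M0 and by 0.33 in the same comparison under DGAT1i. These values describe lists chosen with results known and were given no test. Unlike the fold changes themselves, the difference does not depend on scaling between libraries, and it was 0.43 with library size alone.

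**Figure D4:**
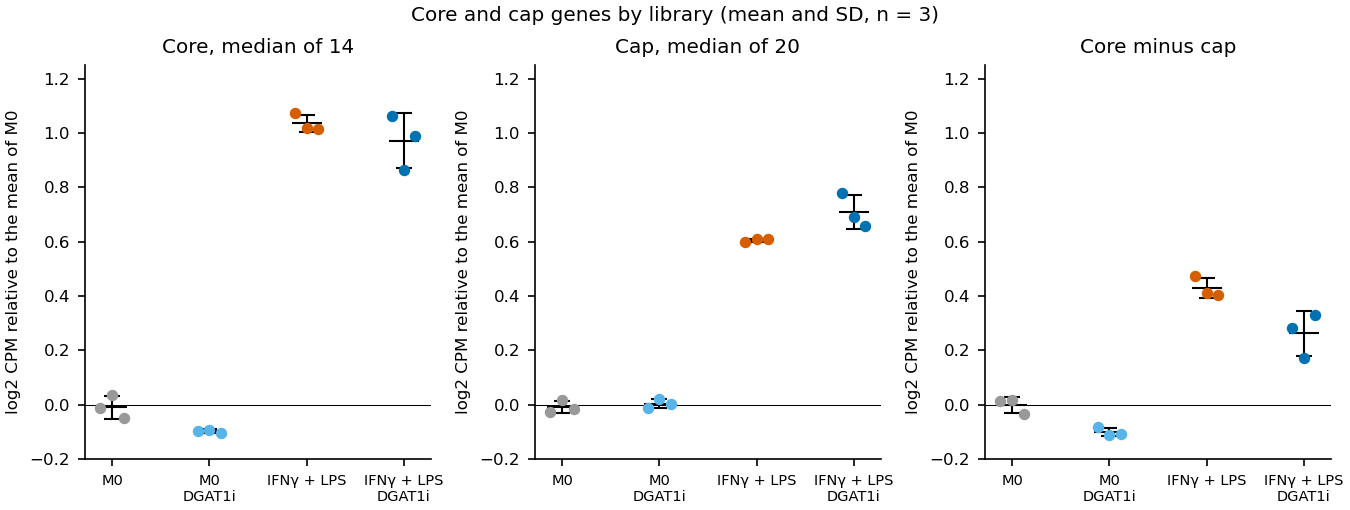
Median over 14 core genes and over 20 cap genes of log2 CPM relative to each gene's mean in M0, and core minus cap (y axes), for each library with the mean and SD of 3 libraries. Core genes sit near 1.0 and cap genes near 0.6 in IFNγ + LPS, and core minus cap is lower with DGAT1i in both states.

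Per kilobase of exon, levels of core genes in M0 ranged from 19.0 CPM for Psmb3 to 63.2 CPM for Psma6, a span of 3.32-fold, with a median of 34.4 CPM per kilobase. In IFNγ + LPS they ranged from 26.0 CPM for Psmb1 to 139.9 CPM for Psma5, a span of 5.39-fold, with a median of 69.5. Cap genes spanned 22.2-fold in M0, between 3.31 CPM per kilobase for Psmd9 and 73.4 for Psmd8, with a median of 22.0, and the median was 31.6 in IFNγ + LPS. Without the 3 assembly chaperones, which are not part of the finished complex, the cap genes spanned 12.3-fold in M0, with Psmd11 lowest at 5.95 CPM per kilobase, and 8.73-fold in IFNγ + LPS. Which gene was lowest or highest depended on the length used. With the length of the longest transcript, Psmb7 was the lowest core gene in M0 and Psmb6 the highest, and the cap genes spanned 12.7-fold in M0, with Psmd5 lowest.

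The effect of DGAT1i on stimulated cells was measured by comparing IFNγ + LPS with and without the inhibitor. Of the 38 members, 8 rose and 4 fell, beside 13.5% of all genes tested that rose and 16.3% that fell. The members that rose were Psmd5, Psmd11, Psmd14, Psmc6, Psmd1, Psmc3, Psmb1 and Psme4, of which 6 are cap genes, and those that fell were Psme1, Psme2, Psmd10 and Psmb2. Median log2 fold changes were -0.01 for core genes, 0.14 for cap genes and -0.18 for Psme genes, beside -0.01 over all genes. The changes were small, and all but that of Psmd5 were under 1.3-fold. DESeq2 called 6 of the 38 members (4 higher, 2 lower, beside 9.27% and 12.04% of all genes), and 7 were called without IFNγ + LPS replicate 2, beside 24.5% of all genes. When each of the 12 libraries was left out, the calls of Psmc3, Psmc6, Psmb1, Psmd1 and Psmb2 were lost in 11, 7, 4, 4 and 3 of the fits.

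The largest change was in Psmd5, a chaperone of the base, which measured 63.0, 47.3 and 59.2 CPM in IFNγ + LPS and 87.3, 88.7 and 85.2 CPM with DGAT1i. Every library with the inhibitor was above every one without it, by 1.55-fold on average (log2 fold change 0.63 ± 0.09, edgeR adjusted p = 6.89e-08). Psmd11 measured 81.5, 87.5 and 84.3 CPM without and 99.6, 108.3 and 115.8 CPM with DGAT1i (1.27-fold, 0.35 ± 0.07, edgeR adjusted p = 6.67e-05). Psmd14 measured 103.0, 93.6 and 99.3 CPM without and 126.2, 116.6 and 109.7 CPM with DGAT1i (1.19-fold, 0.26 ± 0.07, edgeR adjusted p = 0.00233). In both lid genes the groups did not overlap. Psme4 went from 246.3, 253.5 and 257.6 CPM to 280.2, 296.2 and 282.5 CPM (1.13-fold, 0.18 ± 0.05, edgeR adjusted p = 0.00542), and this call was lost without IFNγ + LPS with DGAT1i replicate 2 (edgeR adjusted p = 0.05003).

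Both genes of PA28αβ fell. Psme1 measured 455.4, 495.1 and 453.3 CPM in IFNγ + LPS and 375.7, 358.0 and 357.5 CPM with DGAT1i, without overlap and 1.29-fold lower (log2 fold change -0.36 ± 0.05, edgeR adjusted p = 1.98e-07). Psme2 went from 647.9, 631.9 and 642.7 CPM to 583.2, 545.5 and 556.6 CPM, also without overlap and 1.14-fold lower (-0.19 ± 0.05, edgeR adjusted p = 0.00236). Psmd10 measured 33.5, 41.0 and 37.1 CPM without and 29.2, 30.9 and 26.6 CPM with DGAT1i (1.29-fold lower, -0.37 ± 0.12, edgeR adjusted p = 0.0144). The groups of Psmd10 did not overlap, but its call was lost without IFNγ + LPS replicate 2, without IFNγ + LPS with DGAT1i replicate 3 and in DESeq2. Psme3 was at 64.2, 61.3 and 60.9 CPM with DGAT1i, below all 3 libraries without it, and did not pass the test (-0.17 ± 0.08, edgeR adjusted p = 0.0958). Psmb5 measured 114.9, 104.5 and 114.4 CPM with DGAT1i, overlapping the libraries without it. Psmb6 measured 239.8, 235.5 and 241.4 CPM, above all IFNγ + LPS libraries without DGAT1i, and Psmb7 151.9, 135.6 and 151.5 CPM, below all of them. Among these cutting subunits, Psmb5 (0.10, 95% interval -0.03 to 0.23), Psmb6 (0.06, -0.05 to 0.18) and Psmb7 (-0.13, -0.26 to -0.01) did not pass the test (edgeR adjusted p = 0.273, 0.446 and 0.0997), whereas Psmb8, Psmb9 and Psmb10 fell by 0.23, 0.32 and 0.60 on the log2 scale. Per kilobase of exon, Psmb8 then stood to Psmb5 as 1.08 ± 0.04, and Psmb10 to Psmb7 as 3.44 ± 0.21 (SD, n = 3), and with the principal transcript as 2.24 and 1.52.

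**Figure D5:**
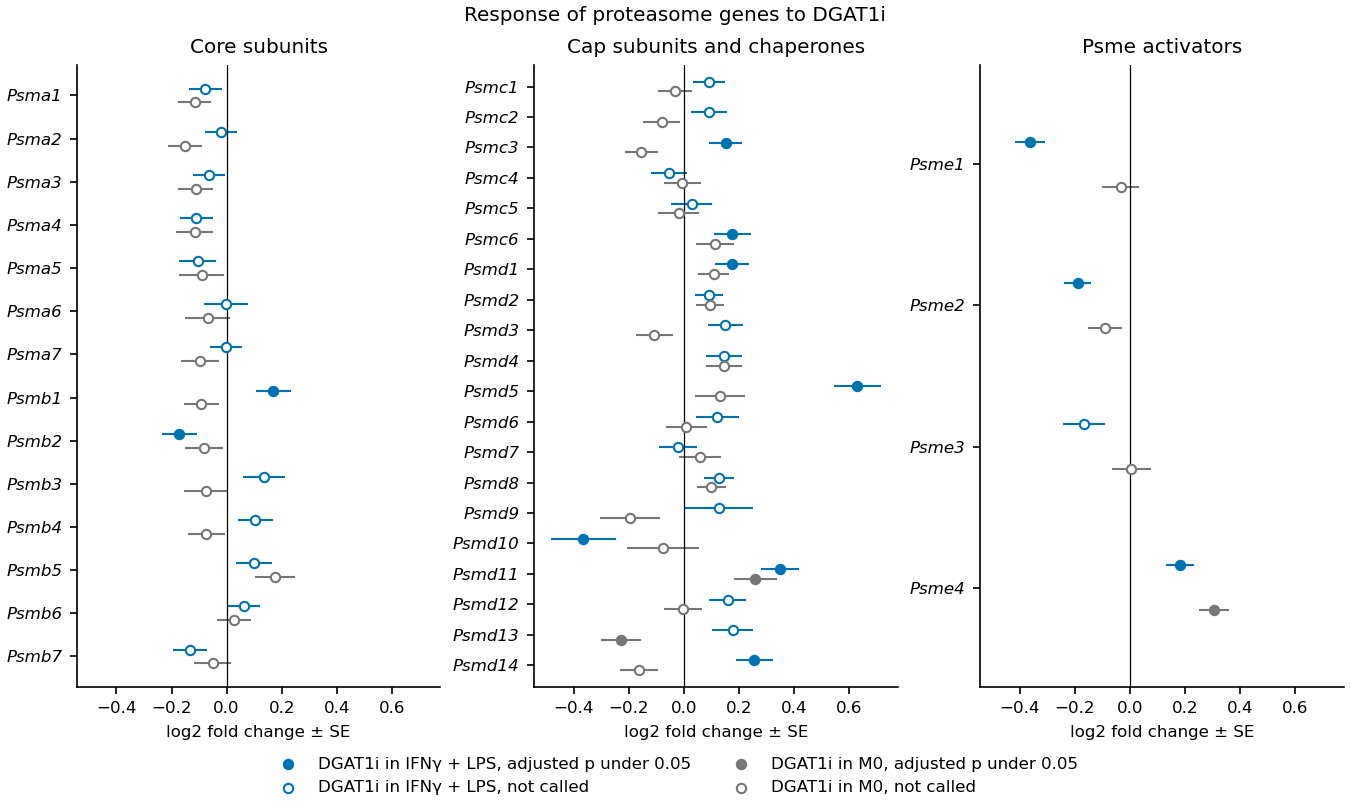
Log2 fold changes (x axis, ± SE) of the 38 members with DGAT1i in IFNγ + LPS (blue) and in M0 (grey), for core, cap and Psme genes, with filled points for an edgeR adjusted p under 0.05. Psmd5 lies farthest right at 0.63 in IFNγ + LPS, and filled grey points are limited to Psme4, Psmd11 and Psmd13.

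In resting cells DGAT1i changed 3 members, of which Psme4 and Psmd11 rose and Psmd13 fell, beside 11.0% of all genes that rose and 13.4% that fell. Psme4 measured 148.0, 148.8 and 149.1 CPM with DGAT1i and 119.4, 120.3 and 120.9 CPM without it (1.24-fold, log2 fold change 0.31 ± 0.05, edgeR adjusted p = 1.05e-05). Psmd11 measured 44.1, 47.7 and 44.9 CPM with DGAT1i and 37.6, 37.8 and 38.6 CPM without it (1.20-fold, 0.26 ± 0.08, edgeR adjusted p = 0.00996). Psmd13 measured 59.0, 58.6 and 60.2 CPM with DGAT1i and 76.1, 62.2 and 70.3 CPM without it (1.17-fold lower, -0.23 ± 0.07, edgeR adjusted p = 0.0159). None of these groups overlapped. The call of Psmd11 was lost without M0 with DGAT1i replicate 2, and that of Psmd13 without that library or without M0 replicate 1. Psmd13 shares 342 bases of exon with Sirt3 on the opposite strand, which had 496 reads. Psmb5 measured 55.9, 56.5 and 53.7 CPM in M0 with DGAT1i, above all M0 libraries, and did not pass the test (0.18 ± 0.07, edgeR adjusted p = 0.0704). Psmb6, at 108.3, 110.7 and 92.0 CPM, and Psmb7, at 71.5, 73.8 and 66.9 CPM, overlapped M0. Median log2 fold changes were -0.09 for core genes and 0.00 for cap genes, beside 0.00 over all genes. The median over all genes was -0.01 with RLE scaling and -0.05 with library size alone. With TMM, 12 of 14 core genes lay below 0 without passing the test, and the share of all genes below 0 was not counted. With RLE scaling 6 members were called (2 higher, 4 lower, beside 9.65% and 14.6% of all genes) and with library size alone 8 (2 higher, 6 lower, beside 7.53% and 17.8%).

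The comparisons with DGAT1i in IFNγ + LPS and in M0 share no library. Psmd11 and Psme4 rose in both, which is all of the members that rose in M0 and 25.0% of those that rose in IFNγ + LPS, and no member fell in both. The same shares over all genes were not counted, so that this overlap has no background to be set against. In DESeq2, however, Psmd11 did not pass the test in M0 (0.24, DESeq2 adjusted p = 0.0716). The difference between these responses was tested as an interaction, in which 6 members were more positive and 1 more negative in IFNγ + LPS, beside 8.66% and 9.80% of all genes tested. The 6 were Psmd5 (0.50 ± 0.12, edgeR adjusted p = 0.0026), Psmd14 (0.42 ± 0.10, edgeR adjusted p = 0.000924), Psmd13 (0.41 ± 0.10, edgeR adjusted p = 0.00323), Psmc3 (0.31 ± 0.09, edgeR adjusted p = 0.0065), Psmb1 and Psmd3. DESeq2 called 4 members more positive and 1 more negative, beside 6.52% and 6.65% of all genes it tested. The member that was more negative was Psme1 (-0.33 ± 0.08, edgeR adjusted p = 0.00319), which measured 65.2, 72.7 and 70.9 CPM in M0 with DGAT1i, overlapping M0 without it. Psmd13 was at 91.8, 90.3 and 98.8 CPM in IFNγ + LPS with DGAT1i, above all libraries without it, and did not pass the test there (0.18 ± 0.07, edgeR adjusted p = 0.0661). Psmd14 was at 62.4, 62.3 and 64.8 CPM in M0 with DGAT1i, below all M0 libraries, without passing the test (edgeR adjusted p = 0.0793). It rose with DGAT1i in IFNγ + LPS. Psmc3 lay likewise, with 91.9, 98.9 and 104.0 CPM in M0 with DGAT1i and 157.5, 162.1 and 150.6 CPM in IFNγ + LPS with DGAT1i. Its decrease in M0 did not pass the test (edgeR adjusted p = 0.0525). Its increase in IFNγ + LPS was near the threshold (edgeR adjusted p = 0.0486), and that call was lost in 11 of the fits that left out a library. Psmd5 was at 38.9, 40.3 and 49.5 CPM in M0 with DGAT1i, where 1 library stood above the other two. For Psme2 and Psme4 the interaction did not pass the test (-0.10, 95% interval -0.26 to 0.06, and -0.13, -0.28 to 0.03).

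Stimulation in the presence of DGAT1i, from M0 with DGAT1i to IFNγ + LPS with DGAT1i, raised 35 of the 38 members and lowered 0, beside 35.3% of all genes that rose and 35.3% that fell. This comparison shares no library with stimulation without the inhibitor. All of its 35 genes were among the 36 that rose there (97.2% of them), a share that was not counted over all genes. The exception was Psme3, which measured 58.7, 60.3 and 61.8 CPM in M0 with DGAT1i and 64.2, 61.3 and 60.9 CPM in IFNγ + LPS with DGAT1i, with overlapping groups (0.05, 95% interval -0.10 to 0.19, edgeR adjusted p = 0.597). For Psme3 the test of the difference between the responses was not passed (edgeR adjusted p = 0.268). Psme2 rose 8.27-fold (71.6, 66.6 and 65.5 CPM to 583.2, 545.5 and 556.6 CPM) and Psme1 5.23-fold (log2 fold changes 3.05 and 2.39, edgeR adjusted p = 6.96e-46 and 1.41e-39). Psma5, at 44.6, 50.0 and 41.0 CPM in M0 with DGAT1i and 185.5, 156.7 and 173.0 CPM after stimulation, rose 3.80-fold, beside 3.84-fold without DGAT1i. Psma7 measured 64.8, 65.3 and 67.4 CPM in M0 with DGAT1i and 211.2, 183.2 and 214.8 CPM after stimulation (3.08-fold). Psma3 measured 70.7, 71.0 and 68.1 CPM and then 180.7, 166.5 and 177.7 CPM (2.50-fold), also without overlap, so that the 5 members with the largest increases were the same genes in the same order as without the inhibitor. Median log2 fold changes were 1.00 for core, 0.67 for cap and 1.67 for Psme genes, beside -0.01 over all genes.

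Other genes of the ubiquitin and proteasome pathway were followed as 7 lists with 35 genes, all of which were tested. They include Psmb8, Psmb9 and Psmb10. In IFNγ + LPS against M0, 22 rose and 9 fell, with a median log2 fold change of 0.39, beside 37.1% and 36.2% of all genes tested. Of the 6 genes for core assembly and inhibition, Pomp, the maturation factor of the core, rose by 1.07 ± 0.06 on the log2 scale, as did Psmf1, an inhibitor of the core, by 1.20 ± 0.09, and Psmg4, whereas the assembly chaperones Psmg1 (-0.90 ± 0.19) and Psmg2 (-0.58 ± 0.17) fell. Among the 6 partners of the cap, the ubiquitin receptor Adrm1 (0.84 ± 0.08) and Ecpas (0.75 ± 0.06) rose with Sem1 and Txnl1, and the deubiquitinases Usp14 (-0.70 ± 0.07) and Uchl5 (-0.23 ± 0.11) fell. Nfe2l1, which encodes the factor that drives proteasome genes when the proteasome is impaired, rose by 1.29 ± 0.05, whereas Nfe2l2 fell (-0.19 ± 0.05), Ngly1 did not pass the test (0.25 ± 0.12, edgeR adjusted p = 0.0601) and Ddi2, from the list of shuttles, fell (-0.51 ± 0.06). The polyubiquitin gene Ubb (1.36 ± 0.05) rose, and Rps27a, which encodes ubiquitin fused to a ribosomal protein, fell (-0.81 ± 0.06). Of the 4 peptidases that act after the proteasome, Lap3 (1.83 ± 0.08) and Erap1 (1.43 ± 0.06), which trim peptides, rose together with Npepps.

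With DGAT1i in IFNγ + LPS, 7 of these 35 genes rose and 8 fell, the latter with Psmb8, Psmb9 and Psmb10, beside 13.5% and 16.3% of all genes tested. In M0 2 rose and 2 fell, beside 11.0% and 13.4%. Pomp fell by 0.23 ± 0.06 on the log2 scale in IFNγ + LPS with the inhibitor, as did Lap3 (-0.27 ± 0.07) and Erap1 (-0.30 ± 0.06), while Usp14 (0.27 ± 0.08), Psmf1 (0.33 ± 0.08) and Npepps (0.51 ± 0.09) rose. Nfe2l1 rose with DGAT1i in M0 (0.19 ± 0.05) and fell in IFNγ + LPS (-0.14 ± 0.05), and the difference between these responses passed the test (-0.34 ± 0.07). In the test of that difference over the lists, 3 genes were more positive and 6 more negative in IFNγ + LPS, beside 8.66% and 9.80% of all genes tested. All calls on these lists are at an edgeR adjusted p under 0.05.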

How the data were processed

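Libraries were grouped by their deposited titles and source names. The authors deposited raw read counts per gene, without normalization. The submitters' processing notes name GRCm38 and DESeq2, whereas the aligner, counter and annotation release are not given in sources used here. The study's methods name a stranded library kit and the labels another kit, and the strand setting of the counting is not stated. Of 47937 gene identifiers, 47310 matched GENCODE M21 on GRCm38 without their version, and 25746 had 0 reads throughout. 1 CPM is worth 4.28 to 7.58 reads, so that low genes are less precise.

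The main test was edgeR 4.0.16 in R 4.3.3 (TMM, filterByExpr, 1 mean per group over 12 libraries, robust glmQLFit) with Benjamini-Hochberg adjustment over 11760 genes, and the fit was tested on simulated data. DESeq2 1.42.0 and other settings were alternatives. Members and lists were chosen with earlier results of these data known. Values in every library are given for Psme genes, Psmb5, Psmb6, Psmb7 and, per comparison, the 5 called members with the largest changes. Levels per kilobase use the union of exons. Exon overlaps came from GENCODE, copies from BLAST 2.17.0 at 95% identity, promoters from RefSeq (GRCm38.p6). Figures were drawn with matplotlib 3.10.9.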

Additional observations from a re-analysis of the deposited data

Results flagged for a closer look

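In 7 of 38 members the response to DGAT1i differed between stimulated and resting cells by the test of the difference itself (quasi-likelihood interaction test of edgeR, Benjamini-Hochberg adjusted over all genes). This share is near the 18.46% of all genes tested that passed the same test. The difference, as the log2 fold change in IFNγ + LPS minus that in M0, was 0.50 for Psmd5, 0.42 for Psmd14, 0.41 for Psmd13, 0.31 for Psmc3, 0.26 for Psmb1, 0.26 for Psmd3 and -0.33 for Psme1. For Psmd13 the response was -0.23 in M0 and 0.18 in IFNγ + LPS, and for Psmc3 -0.15 and 0.15. Of these 4 responses, that of Psmd13 in IFNγ + LPS and that of Psmc3 in M0 did not pass the test (edgeR adjusted p = 0.0661 and 0.0525, the latter 0.0472 with the replicate block), and the call of Psmc3 in IFNγ + LPS was lost in 11 of 12 fits that left out a library. DESeq2 called 5 members for the difference, beside 13.17% of all genes it tested. The calls of Psmb1 and Psmd3 were the least stable, since they were lost in 5 and 8 of the 12 fits that left out a library. Calls of Psmd5, Psmd14, Psmd13, Psmc3 and Psme1 were kept in each of these 12 fits.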

How the results depend on the processing

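Stimulation raised 34 to 36 of the 38 members, beside 20.5% to 38.9% of all genes, under the alternatives other than library size alone, where 25 rose and 5 fell, beside 19.9% and 59.5%. DGAT1i effects were small, and their counts moved with the settings. In IFNγ + LPS, 12 members were called, beside 19 at an adjusted p under 0.1, 7 without the filter on low counts, 6 in DESeq2 and 16 (13 higher, 3 lower) in a fit of only the 6 libraries compared, where 29.8%, 36.4%, 14.9%, 21.3% and 31.3% of all genes tested were called. In M0, 3 were called, beside 7 at an adjusted p under 0.1, 6 with RLE scaling, 8 with library size alone and 2 in DESeq2, where 24.4%, 29.97%, 24.3%, 25.3% and 16.02% of all genes were called. Leaving out 1 library at a time gave counts of 7 to 11 for DGAT1i in IFNγ + LPS (7 without IFNγ + LPS replicate 2), 2 to 4 in M0, 5 to 7 for their difference, 35 to 36 for stimulation and 35 to 36 for stimulation under DGAT1i, beside 24.4% to 29.9%, 19.02% to 25.2%, 15.7% to 18.05%, 69.1% to 73.4% and 66.4% to 70.2% of all genes. Core minus cap for the difference of the DGAT1i responses was -0.0763 to -0.0061 with a library left out. Core minus cap for stimulation under DGAT1i was 0.33, and 0.39 with means in place of medians. Psme3 turned to -0.25 in IFNγ + LPS against M0 with library size alone, and under DGAT1i to -0.38 with library size alone and -0.0072 without the filter. Psmd1, which did not pass the test in IFNγ + LPS against M0, ranged from -0.0237 to 0.0365 with a library left out and turned positive, at 0.04, 0.01 and 0.02, without M0 replicate 3, IFNγ + LPS replicate 2 and IFNγ + LPS replicate 3. The cause of these changes was not tested. Replicates with the same number correlated at -0.02 to 0.07 (18 pairs, median 0.011). Those with different numbers correlated at -0.05 to 0.04 (36 pairs, median -0.005). These ranges overlap, and whether the numbers mark weakly paired libraries was not tested. With the replicate block, 36 members were called for stimulation, 12 for DGAT1i in IFNγ + LPS, 4 for DGAT1i in M0, 7 for the difference and 35 for stimulation under DGAT1i, beside 73.4%, 30.3%, 25.2%, 19.3% and 70.7% of all genes, and the gene added in M0 was Psmc3 (-0.15, edgeR adjusted p = 0.0472 with the block and 0.0525 without). Psmd9 and Psmd10 rest on the fewest reads.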
